A study of Saccharomyces cerevisiae with 4 samples.

Results

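The ribosome biogenesis factors described here are 59 open reading frames (ORFs) of Saccharomyces cerevisiae, taken by ORF name from the spots of 4 whole-genome arrays on which 6063 ORFs were read at least once. They encode 7 proteins of small nucleolar ribonucleoprotein particles (snoRNPs), 2 factors of the earliest pre-rRNA, 21 subunits of the small-subunit (SSU) processome and 29 factors that assemble the 60S subunit. 55 of the 59 were read on all 4 arrays. NOP10 (YHR072W-A), UTP20 (YBL004W) and UTP22 (YGR090W) had no spot that was read on any array, and IMP4 had none on the first array of the zinc limitation experiment, so that experiment has 55 members with a value on both arrays and the Zap1TC experiment has 56.

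Each array compared mRNA from a pair of cultures of the haploid Matα strain DY1457, whose markers are ura3, trp1, leu2, his3, can1 and ade6. In experiment E4, cells grown in low zinc medium (LZM) with 3 μM zinc were set against cells grown in LZM with 3000 μM zinc. LZM holds EDTA and citrate, which buffer metals, so that little of the added zinc reaches the cells at the lower dose. In experiment E3, cells carrying the Zap1TC allele were set against cells carrying the empty vector pYef2, both in SD galactose medium with 1 μM zinc, which is zinc-replete. Zap1 is the transcription factor that activates genes of zinc uptake and storage when zinc is scarce, and Zap1TC is a constitutive form of it that responds poorly to zinc. It was expressed from pYef2 under the galactose-inducible GAL1 promoter, so E3 is an overexpression model. Each experiment had 2 arrays from independent cultures. The culture with 3 μM zinc and the culture with Zap1TC carried Cy5 on both of their arrays, and the LZM3000 and vector cultures carried Cy3, so a gene-specific dye effect and the condition cannot be told apart.

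Ribosomes are built in the nucleolus, where RNA polymerase I makes a long pre-rRNA that is folded, modified and cut while ribosomal proteins are added. Box C/D and H/ACA snoRNPs guide methylation and pseudouridylation of the pre-rRNA, the SSU processome assembles on its 5′ part and releases the precursor of the 40S subunit, and a separate chain of helicases, GTPases and scaffold proteins matures the 60S subunit. In yeast the genes for these factors are known to be transcribed together according to growth conditions, under activators such as Sfp1 and repressors such as Dot6, Tod6 and Stb3. The comparisons asked how the mRNAs of this machinery stood under severe zinc limitation and under constitutive Zap1 activity.

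Values are log2 ratios of Cy5 over Cy3 after normexp background correction and loess within each array, so that a ratio is relative to the centre of its array and a change shared by all mRNAs would not be seen. A higher or lower ratio here does not tell a change of mRNA per cell from a change in the share of cells that contain it. The arrays held 5295 and 5361 ORFs in E4 and 5934 and 5881 in E3, and the number of arrays limits the precision. The members were brighter on the E4 arrays, where their median Cy5 intensity after normalization was 486 and 687, than on the E3 arrays, where it was 107 and 84.1. The correction adds an offset of 50 to these intensities and pulls the ratios of dim spots toward 0. All members read were well above background in both channels except UTP5, whose Cy5 signal was not well above background on E3 array 2. The mRNA of ZAP1 checked the labels, with a log2 ratio of 1.44 and 1.62 on the E4 arrays, on which its Cy3 signal was not well above background, and of 6.84 and 6.47 on the E3 arrays.

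Under severe zinc limitation most ribosome biogenesis mRNAs were not called and more were higher than lower, while in Zap1TC-expressing cells most of them were lower than in vector cells. In E4, 20 of 55 members were higher with 3 μM zinc, 4 were lower and 31 were not called by limma at an adjusted p under 0.05. Over all 5129 ORFs tested in E4, 25.9% were higher and 25.0% were lower. With normexp and loess the share of members called higher (20 of 55) was above this background and the share called lower (4 of 55) was below it. Plain background subtraction gave 8 members higher and 1 lower, and the deposited log2 values gave 13 higher and 11 lower. The shares over all ORFs under those 2 settings are not given here, so the position against the background holds for normexp and loess only. In E3, 48 of 56 members were lower, 0 were higher and 8 were not called, and at an unadjusted p under 0.05 limma again had 48 lower and 0 higher. Over all 5780 ORFs tested in E3, 29.4% were lower and 29.4% were higher, so the share of members called lower (48 of 56) was above the background and the share called higher was below it.

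The median log2 ratio of the members was 0.12 in E4, a 1.09-fold higher level with 3 μM zinc, with a range of −0.43 to 0.44. In E3 the median was −0.51, a 1.43-fold lower level in Zap1TC cells, with a range of −1.33 to 0.07, and 55 of 56 members were below 0. The medians over all ORFs tested were −0.0007 in E4 and 0.001 in E3. By array, the members had medians of 0.12 and 0.09 in E4 and of −0.58 and −0.42 in E3. With an array left out, the remaining array of that experiment is assumed to vary like the others, so calls can be lost with little change in the ratio. Without E4 array 1, 8 members were higher and 3 lower in E4. Moves given in this paragraph as over 1.5-fold are quotients of log2 ratios and not folds of expression. The log2 ratio moved by over 1.5-fold, with the call lost, for TIF6 (to 0.20), NOG2 (to 0.25), CIC1 (to 0.19), UTP18 (to 0.11), NOC2 (to 0.12) and RPF1 (to 0.10). GAR1, UTP4, UTP6, UTP7, UTP13, NOP7, ERB1, DBP3 and RLP7 lost their call with smaller moves (UTP13 had 0.24 with and without E4 array 1). Without E4 array 2, 19 were higher and 2 lower, and UTP6, UTP13, DBP3, SSF1 and RPF1 lost their call, also with smaller moves. Without E3 array 1, 42 members were lower in E3, with calls lost by RRP5 (−0.0083), UTP6 (−0.16) and UTP13 (−0.17), which moved by over 1.5-fold, and by IMP4 (−0.23), NUG1 (−0.18) and EBP2 (−0.20), which moved by less. The log2 values that the authors deposited gave 13 higher and 11 lower in E4 and an E4 median of 0.0407, and print-tip loess gave a median of 0.0598.

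**Figure D1:**
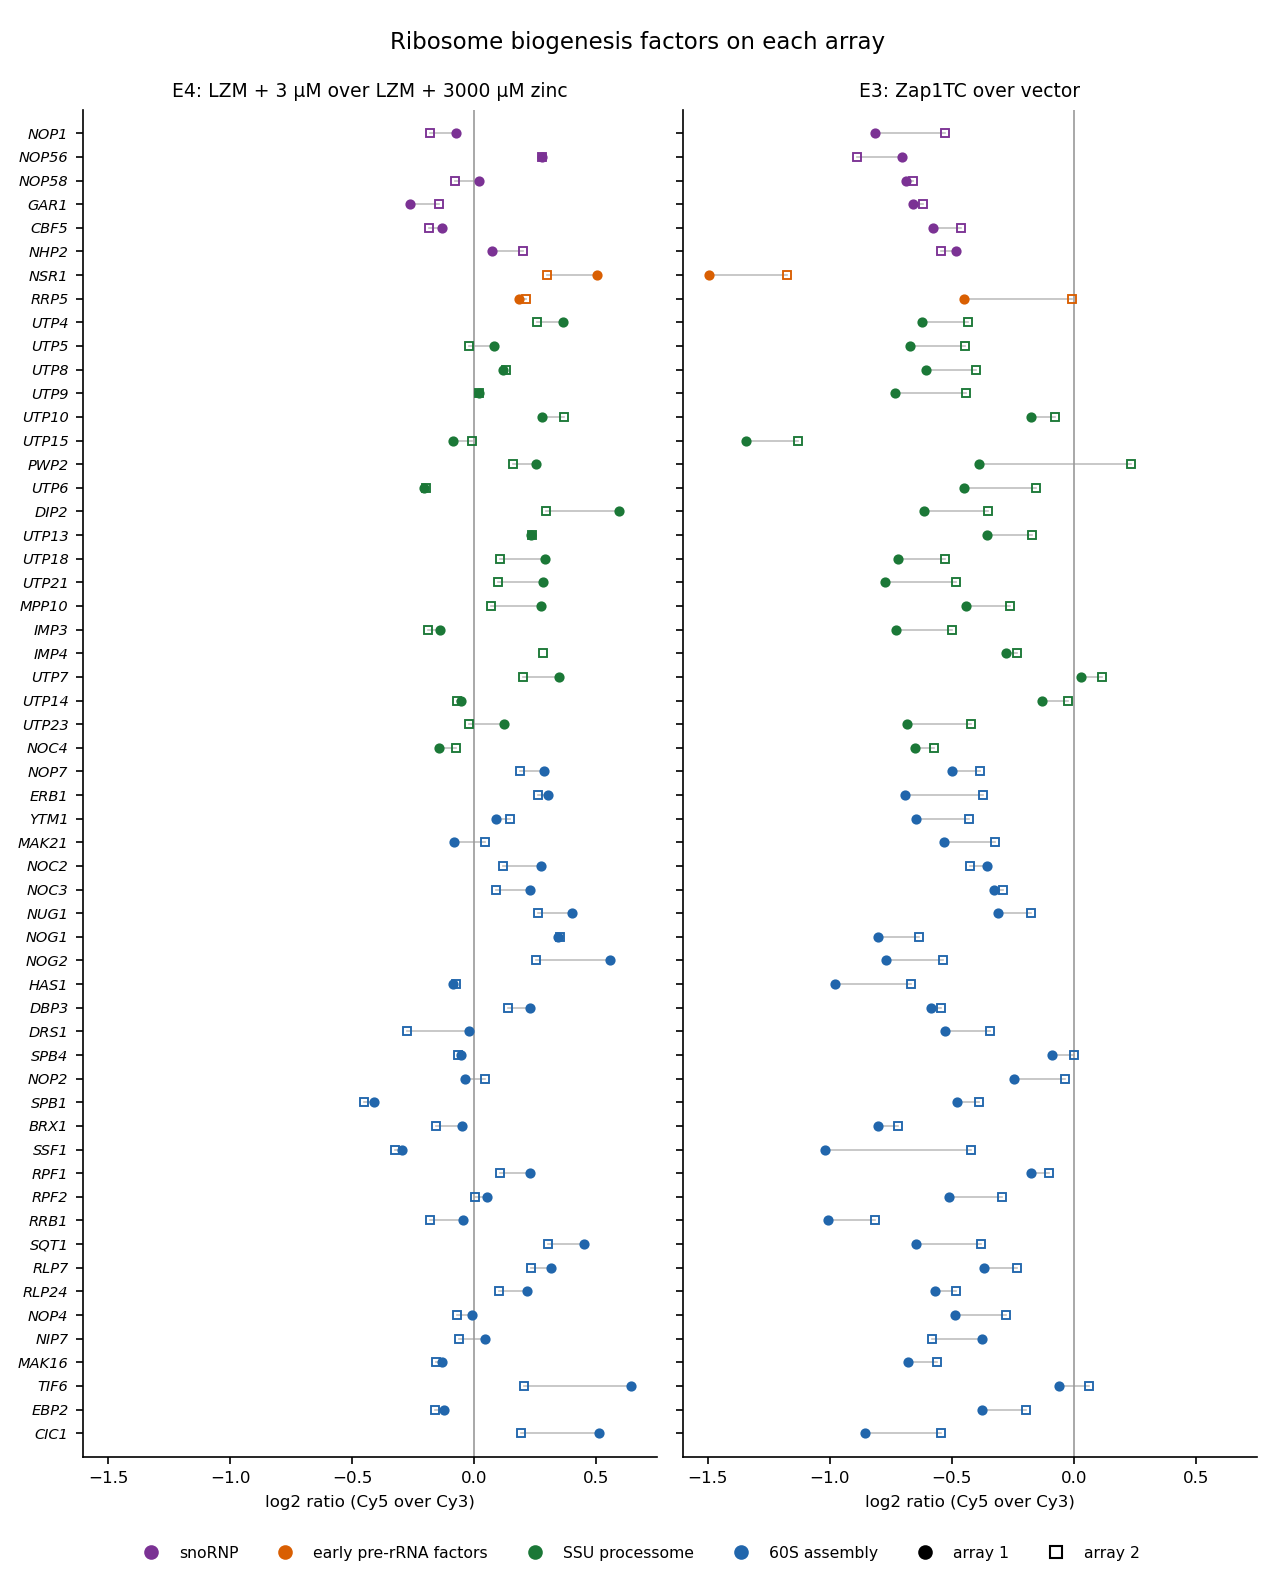
Log2 ratio of Cy5 over Cy3 (horizontal axis) for each ribosome biogenesis gene read (rows, in the order of their roles), for E4 (3 μM over 3000 μM zinc, left panel) and E3 (Zap1TC over vector, right panel), with array 1 as a filled circle, array 2 as an open square and the colour giving the class. The E3 points lie left of 0 on both arrays for 52 of 56 genes, while the E4 points of 55 genes lie right of 0 on both arrays for 31 and left of it on both for 18.

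The 2 responses were compared directly as the contrast of E4 minus E3, over the 4992 ORFs read on all 4 arrays. The log2 ratio was higher in E4 than in E3 for 45 of 55 members, lower for 0, and not called for 10. At an unadjusted p under 0.05, 47 were higher and 0 lower. Over all ORFs in this contrast 26.5% were higher and 21.6% were lower, so 45 of 55 was above the background. Without E3 array 1 the call was lost by RRP5, whose difference was 0.20 in place of 0.43, and, with smaller moves, by RPF1 (0.27), NOP4 (0.24) and TIF6 (0.36). Without E4 array 1 it was lost by TIF6, at 0.21 in place of 0.42, and by RPF1, at 0.24 in place of 0.31. With plain background subtraction RRP5 (0.66, adjusted p = 0.105) and TIF6 (0.42, adjusted p = 0.124) were not called. The median difference of the members was 0.57 on the log2 scale, against 0.02 over all ORFs. For 49 of 55 members both E4 arrays were above both E3 arrays, a pattern that 40.9% of all ORFs showed. This contrast also sets LZM against SD galactose medium and cells without a plasmid against cells with one, and these cannot be told apart from the difference between zinc limitation and Zap1TC.

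**Figure D2:**
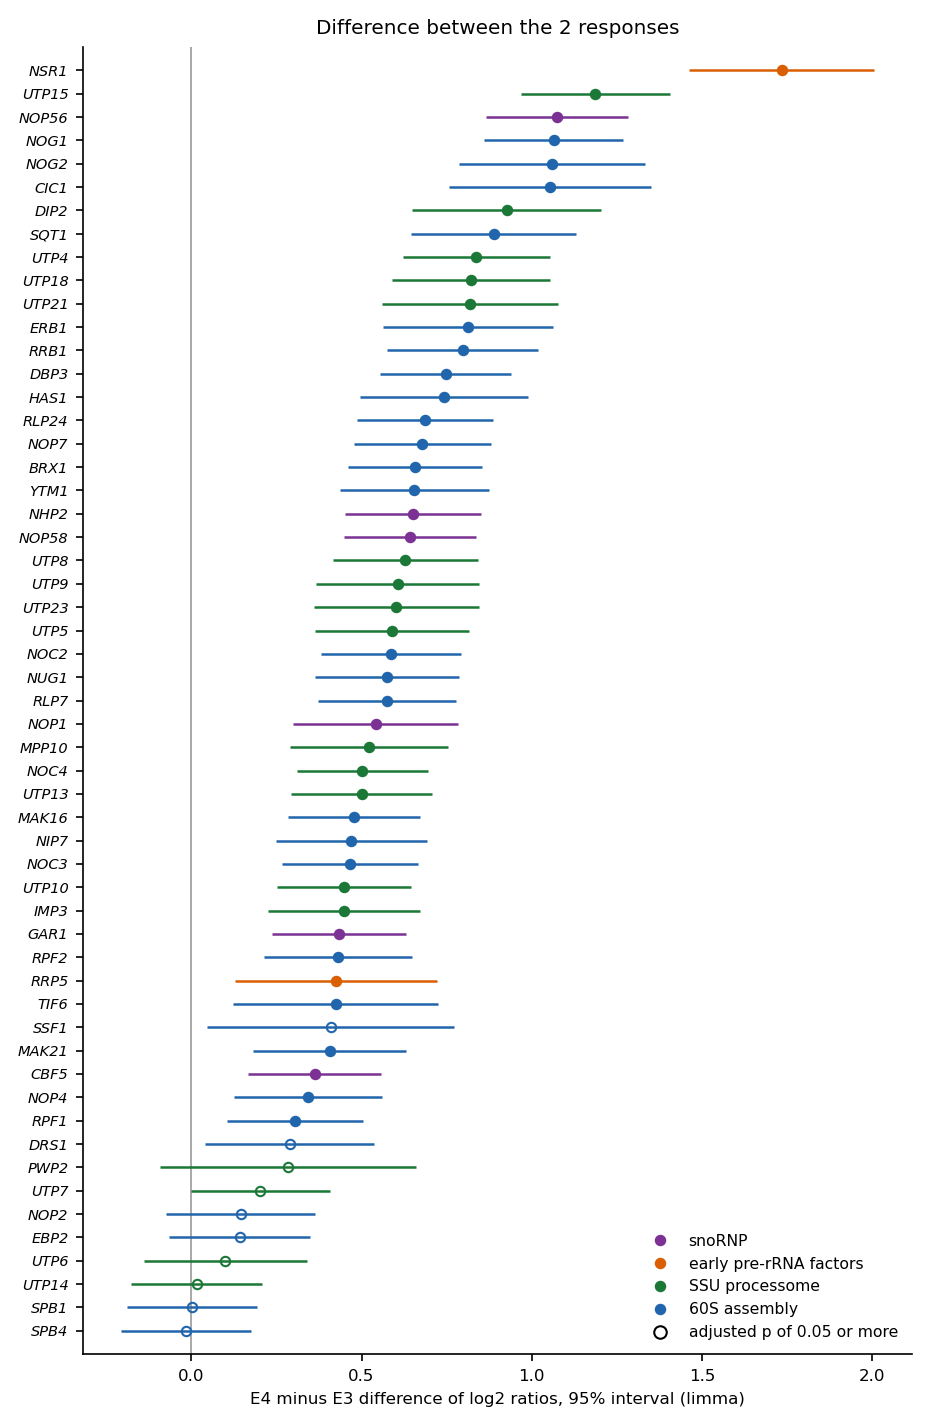
Difference of the log2 ratios, E4 minus E3 (horizontal axis), for the 55 ribosome biogenesis genes read on all 4 arrays, sorted by its size, with 95% intervals from limma as bars. Filled points have an adjusted p under 0.05 and open points do not. The differences run from −0.02 for SPB4 to 1.73 for NSR1, and the 45 filled points are all above 0.

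The core proteins of the snoRNPs were lower in Zap1TC cells for all 6 genes read, as were 29.4% of all ORFs tested in E3. Of the box C/D proteins, NOP56 (YLR197W), a scaffold of the particle, had log2 ratios of 0.28 and 0.28 on the E4 arrays and of −0.70 and −0.89 on the E3 arrays. It was the only snoRNP gene called higher with 3 μM zinc (0.28 ± 0.0015, SD, n = 2, adjusted p = 0.00566) and it was 1.74-fold lower in Zap1TC cells (−0.80 ± 0.13, SD, n = 2, adjusted p = 3.27e-06). NOP1 (YDL014W), the fibrillarin methyltransferase, had −0.08 and −0.18 in E4 and −0.81 and −0.53 in E3. Its partner NOP58 (YOR310C) had 0.02 and −0.08 in E4 and −0.69 and −0.66 in E3. Both E4 arrays were above both E3 arrays for all 3 box C/D genes, as for 40.9% of all ORFs, and all 3 were called lower in E3, with means of −0.67 for NOP1 and for NOP58.

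Among the H/ACA proteins, GAR1 (YHR089C) had log2 ratios of −0.26 and −0.14 in E4 and of −0.66 and −0.62 in E3. It was called lower in both experiments, with a mean of −0.20 ± 0.08 (adjusted p = 0.0201) in E4 and of −0.64 ± 0.03 (adjusted p = 1.1e-05) in E3 (SD, n = 2 each). CBF5 (YLR175W), the pseudouridine synthase, had −0.13 and −0.18 in E4 and −0.58 and −0.46 in E3, and NHP2 (YDL208W) had 0.07 and 0.20 in E4 and −0.48 and −0.55 in E3. Neither was called in E4 and both were lower in E3. GAR1 and RPF1 (YHR088W), which encodes a 60S factor, are neighbours on chromosome VIII and were the only adjacent pair among the members.

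NSR1 (YGR159C), the yeast nucleolin, had both the lowest E3 value and the largest difference between the experiments of all members read. Its normalized Cy5 and Cy3 intensities were 2385 and 1683 on E4 array 1 and 2787 and 2270 on E4 array 2, against 217 and 612 on E3 array 1 and 163 and 368 on E3 array 2. The log2 ratios were 0.50 and 0.30 in E4 and −1.50 and −1.17 in E3. NSR1 mRNA was therefore 1.32-fold higher with 3 μM zinc (0.40 ± 0.15, adjusted p = 0.00272) and 2.52-fold lower in Zap1TC cells (−1.33 ± 0.23, adjusted p = 4.52e-07; SD, n = 2 each). The difference was 1.73, with a 95% interval of 1.46 to 2.01.

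RRP5 (YMR229C), which binds the pre-rRNA in both assembly pathways, had log2 ratios of 0.18 and 0.21 in E4 and of −0.45 and −0.01 in E3. Its E3 call is at the threshold (−0.23 ± 0.31, SD, n = 2, adjusted p = 0.0494) and rests on array 1, since its value was −0.0083 without it, with an adjusted p of 0.95.

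The SSU processome had medians close to those of the members as a whole, with log2 ratios of 0.15 in E4 and −0.50 in E3. 6 of its 18 genes tested were higher and 1 was lower in E4, and 15 of 19 were lower in E3. In the contrast of E4 minus E3, 14 of 18 were higher. Of all ORFs tested, 25.9% were higher and 25.0% lower in E4, and 29.4% were lower in E3. The contrast had 26.5% of all ORFs higher and 21.6% lower. The 6 of 18 higher in E4 are close to the share over all ORFs and are not read as a result for the SSU processome.

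The UtpA subcomplex, which binds the 5′ end of the pre-rRNA, consists here of UTP4 (YDR324C), UTP5 (YDR398W), UTP8 (YGR128C), UTP9 (YHR196W), UTP10 (YJL109C) and UTP15 (YMR093W). UTP15 had the lowest E3 value of them. It had log2 ratios of −0.09 and −0.01 in E4 and of −1.34 and −1.13 in E3, with normalized Cy5 and Cy3 intensities of 93.8 and 238 on E3 array 1 and of 72.7 and 159 on E3 array 2. It was not called in E4 (adjusted p = 0.581) and was 2.36-fold lower in Zap1TC cells (−1.24 ± 0.15, SD, n = 2, adjusted p = 2.07e-07). UTP10 was at the other end, with 0.28 and 0.37 in E4 and −0.18 and −0.08 in E3. It was higher in E4 (adjusted p = 0.00189) and not called in E3 (adjusted p = 0.106), although it was called lower there with the deposited log2 values (−0.19, adjusted p = 0.0116), no background correction (−0.17, 0.0202), median centring (−0.20, 0.0203) and plain subtraction (−0.30, 0.0417). UTP4, UTP5, UTP8 and UTP9 had E3 means between −0.59 and −0.50, all called lower, and of these only UTP4 was higher in E4 (0.31 ± 0.08, SD, n = 2).

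The UtpB subcomplex held the member with the highest E4 mean. DIP2 (YLR129W) had log2 ratios of 0.59 and 0.29 in E4 and of −0.61 and −0.35 in E3, and was 1.36-fold higher with 3 μM zinc (adjusted p = 0.00175) and lower in Zap1TC cells (−0.48 ± 0.19, SD, n = 2, adjusted p = 6.76e-04). UTP21 (YLR409C) had the lowest E3 mean of the subcomplex, with 0.28 and 0.10 in E4 and −0.78 and −0.48 in E3, and UTP18 (YJL069C) was close to it, with 0.29 and 0.11 in E4 and −0.72 and −0.53 in E3. UTP13 (YLR222C) was higher in E4 (0.23 and 0.24) and lower in E3 (−0.36 and −0.17). UTP6 (YDR449C) was the exception in E4, since its values of −0.21 and −0.20 were called lower there (adjusted p = 0.0436), as were its E3 values of −0.45 and −0.16 (adjusted p = 0.00529). UTP6 lost its E4 call with no background correction (−0.16, limma adjusted p = 0.0648) and with plain subtraction (−0.26, 0.315). Its difference of 0.10 had an interval of −0.14 to 0.34 and was not called.

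PWP2 (YCR057C), also of UtpB, could not be placed in E3. It had log2 ratios of 0.25 and 0.16 in E4 and of −0.39 and 0.23 in E3, and it was not called in either experiment or in the contrast. The 2 spots of PWP2 on E3 array 1 differed by 0.78, the largest gap between the spots of a member on any array. Without E3 array 1 it was called higher at 0.23 (adjusted p = 0.0474), and without E3 array 2 it was called lower at −0.39 (adjusted p = 0.00298).

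In the Mpp10 complex, MPP10 (YJR002W) had log2 ratios of 0.27 and 0.07 in E4 and of −0.44 and −0.26 in E3, and IMP3 (YHR148W) had −0.14 and −0.19 in E4 and −0.73 and −0.50 in E3. IMP4 (YNL075W) had 0.28 on the 1 E4 array that read it and −0.28 and −0.23 in E3. All 3 were called lower in E3, and neither MPP10 nor IMP3 was called in E4.

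The remaining SSU genes included the member with the highest E3 mean. UTP7 (YER082C) had log2 ratios of 0.35 and 0.20 in E4 and of 0.03 and 0.11 in E3, and it was the only member above 0 on all 4 arrays. It was higher in E4 (0.27 ± 0.10, SD, n = 2, adjusted p = 0.00554) and not called in E3 (adjusted p = 0.367). UTP14 (YML093W) was near 0 in both experiments, with −0.06 and −0.07 in E4 and −0.13 and −0.03 in E3. NOC4 (YPR144C) and UTP23 (YOR004W) were not called in E4 and were lower in E3, with −0.15 and −0.08 in E4 and −0.65 and −0.58 in E3 for NOC4, and E3 values of −0.69 and −0.42 for UTP23.

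The 60S assembly factors gave much the same counts. 12 of 29 were higher and 2 were lower in E4, and 25 of 29 were lower in E3, with medians of 0.12 in E4 and −0.44 in E3. In the contrast of E4 minus E3, 23 of 29 were higher. Of all ORFs tested, 25.9% were higher and 25.0% lower in E4, and 29.4% were lower in E3. The contrast had 26.5% of all ORFs higher and 21.6% lower.

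With all 4 arrays, the nucleolar GTPases of the 60S pathway were the 1 role group in which every gene was higher in E4, lower in E3 and different between them. The E4 call of NOG2 needed E4 array 1 and the E3 call of NUG1 needed E3 array 1. NOG1 (YPL093W) had log2 ratios of 0.34 and 0.35 in E4 and of −0.80 and −0.64 in E3. NOG2 (YNR053C) had 0.56 and 0.25 in E4 and −0.77 and −0.54 in E3, and NUG1 (YER006W) had 0.40 and 0.26 in E4 and −0.31 and −0.18 in E3. NOG1 was 1.27-fold higher with 3 μM zinc (0.35 ± 0.005, adjusted p = 0.00146) and 1.65-fold lower in Zap1TC cells (−0.72 ± 0.12, adjusted p = 5.83e-06; SD, n = 2 each), a difference of 1.06. The difference was also 1.06 for NOG2.

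The PeBoW complex of NOP7 (YGR103W), ERB1 (YMR049C) and YTM1 (YOR272W) is needed to process a precursor of the large rRNAs. ERB1 had log2 ratios of 0.30 and 0.26 in E4 and of −0.69 and −0.37 in E3, NOP7 had 0.28 and 0.19 in E4 and −0.50 and −0.39 in E3, and YTM1 had 0.09 and 0.14 in E4 and −0.65 and −0.43 in E3. All were lower in E3 and ERB1 and NOP7 were higher in E4. The Noc proteins, which accompany pre-60S particles through the nucleus, were also lower in E3 for all 3 genes, with means of −0.43 for MAK21 (YDR060W), −0.39 for NOC2 (YOR206W) and −0.31 for NOC3 (YLR002C). Only NOC2 was higher in E4 (0.27 and 0.12), while NOC3 (0.23 and 0.09) and MAK21 (−0.09 and 0.04) were not called there.

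The DEAD-box helicases differed among themselves. HAS1 (YMR290C), which acts in both assembly pathways, had log2 ratios of −0.09 and −0.08 in E4 and of −0.98 and −0.67 in E3, a 1.77-fold lower level in Zap1TC cells (−0.82 ± 0.22, SD, n = 2, adjusted p = 7.1e-06). DBP3 (YGL078C) was higher in E4 (0.23 and 0.14) and lower in E3 (−0.58 and −0.54), and DRS1 (YLL008W) was not called in E4 (−0.02 and −0.28) and was lower in E3 (−0.53 and −0.34). SPB4 (YFL002C) was near 0 on all 4 arrays, with −0.06 and −0.07 in E4 and −0.09 and 0.0008 in E3. Its difference of −0.02 had an interval of −0.21 to 0.17, and it was the only member with a lower value in E4 than in E3.

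SPB1 (YCL054W), a methyltransferase of the 60S pathway, had the lowest E4 mean of the members and nearly the same ratio in both experiments. Its log2 ratios were −0.41 and −0.45 in E4 and −0.48 and −0.39 in E3, so it was 1.35-fold lower with 3 μM zinc (adjusted p = 2.66e-04) and 1.35-fold lower in Zap1TC cells (adjusted p = 1.47e-04). The difference of 0.0022 had an interval of −0.19 to 0.19. SPB1 was dim in E3, with normalized Cy5 and Cy3 intensities of 60.9 and 84.9 on E3 array 1 and of 55.8 and 73.2 on E3 array 2. With plain subtraction of the local background its difference was 1.23 and was called (adjusted p = 0.00284). NOP2 (YNL061W), also a methyltransferase, was not called in either experiment, with −0.04 and 0.04 in E4 and −0.25 and −0.04 in E3.

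Of the Brix family, whose proteins bind pre-rRNA, BRX1 (YOL077C) had the lowest E3 mean, with log2 ratios of −0.05 and −0.16 in E4 and of −0.80 and −0.72 in E3. SSF1 (YHR066W) was lower in both experiments, with −0.29 and −0.33 in E4 (adjusted p = 0.0371) and −1.02 and −0.42 in E3 (adjusted p = 2.44e-04), and its difference of 0.41 was not called (adjusted p = 0.0617). SSF1 lost its E4 call with plain subtraction (−0.345, limma adjusted p = 0.192) and print-tip loess (−0.25, 0.114). The E4 call was also lost with an intensity trend and robust prior (−0.31, 0.0988). The 2 E3 arrays of SSF1 were further apart than those of most members. The difference was called with no background correction (0.41, adjusted p = 0.0264), plain subtraction (1.06, 0.0231), print-tip loess (0.54, 0.0296), median centring (0.51, 0.0153) and the deposited values (0.37, 0.0383), and also without E3 array 2 (0.71) or without either E4 array (0.39 and 0.42). SSF2 is a near-identical copy of SSF1, so signal shared between them cannot be separated. RPF2 (YKR081C) was not called in E4 (0.05 and 0.0011) and was lower in E3 (−0.51 and −0.30), and RPF1, at 0.23 and 0.10 in E4 (adjusted p = 0.0499) and −0.18 and −0.10 in E3, was called higher in E4 and not called in E3.

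The chaperones of single ribosomal proteins lay on opposite sides of 0 in E4. RRB1 (YMR131C), which binds Rpl3, had log2 ratios of −0.05 and −0.18 in E4 and of −1.01 and −0.82 in E3, and SQT1 (YIR012W), which binds Rpl10, had 0.45 and 0.30 in E4 and −0.65 and −0.38 in E3. RRB1 was not called in E4 and was 1.88-fold lower in Zap1TC cells (−0.91 ± 0.14, SD, n = 2, adjusted p = 1.72e-06). SQT1 was 1.30-fold higher with 3 μM zinc (adjusted p = 0.00225) and 1.43-fold lower in Zap1TC cells (adjusted p = 1.93e-04). RLP7 (YNL002C) and RLP24 (YLR009W), which resemble ribosomal proteins Rpl7 and Rpl24, were both lower in E3, with 0.31 and 0.23 in E4 and −0.37 and −0.23 in E3 for RLP7, and 0.22 and 0.10 in E4 and −0.57 and −0.48 in E3 for RLP24. Of these only RLP7 was called higher in E4.

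TIF6 (YPR016C), the factor that keeps the 60S subunit from joining the 40S subunit too early, was near 0 in E3. It had log2 ratios of 0.64 and 0.20 in E4 and of −0.06 and 0.06 in E3, where it was also the brightest member in Cy5, at normalized intensities of 625 and 493. Its mean was 0.42 ± 0.31 (adjusted p = 0.00333) in E4 and −0.0009 ± 0.09 (adjusted p = 0.994) in E3 (SD, n = 2 each). Its difference was 0.42, and 0.21 without E4 array 1. CIC1 (YHR052W), a nucleolar protein also linked to the proteasome, had 0.51 and 0.19 in E4 and −0.86 and −0.55 in E3, a difference of 1.05. NOP4 (YPL043W), NIP7 (YPL211W), MAK16 (YAL025C) and EBP2 (YKL172W) were not called in E4 and were lower in E3, with E4 means between −0.14 and −0.01 and E3 means between −0.62 and −0.29.

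**Figure D3:**
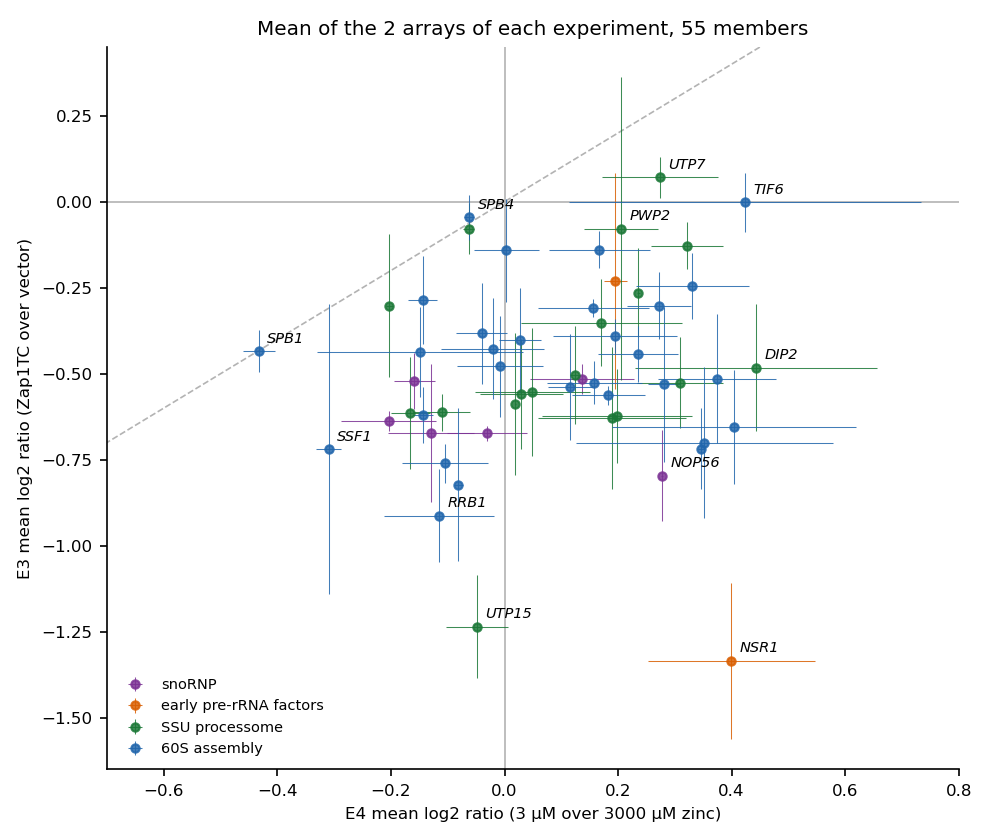
Mean log2 ratio in E4 (3 μM over 3000 μM zinc, horizontal axis) against that in E3 (Zap1TC over vector, vertical axis) for the 55 ribosome biogenesis genes read on all 4 arrays, with bars of 1 SD over the 2 arrays of each experiment, colours by class and a dashed line of equal values. All genes except SPB4 lie below the dashed line, and the genes with the lowest E3 means, NSR1 and UTP15, have E4 means of 0.40 and −0.05.

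The 6 members with the lowest E4 means were SPB1, SSF1, GAR1, UTP6, IMP3 and CBF5, and the 6 with the lowest E3 means were NSR1, UTP15, RRB1, HAS1, NOP56 and BRX1, with no gene in common. Across the 55 members, which are not independent replicates and share the same 4 arrays, the E4 and E3 means had a Pearson's r of 0.114 and a Spearman's rho of 0.149, against an r of 0.456 over all 4992 ORFs. The 16 members higher in E4 and lower in E3 were NOP56, NSR1, UTP4, DIP2, UTP13, UTP18, NOP7, ERB1, NOC2, NUG1, NOG1, NOG2, DBP3, SQT1, RLP7 and CIC1. Another 27 were not called in E4 and lower in E3, and 4 (GAR1, UTP6, SPB1 and SSF1) were lower in both. With plain background subtraction the E4 calls of GAR1, UTP6 and SSF1 were lost. The 4 members higher in E4 and not called in E3 were UTP10, UTP7, RPF1 and TIF6, and the 4 called in neither were PWP2, UTP14, SPB4 and NOP2. The shares of all ORFs with these joint calls are not given here, so these counts are not set against a background. Within an experiment the order of the members was shared by the arrays, with an r of 0.876 in E4 and of 0.862 in E3.

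The arrays of an experiment differed in the size of the response. In E3, array 1 gave a lower ratio than array 2 for 52 of 56 members, by a median of 0.18 on the log2 scale, where the median signed gap over all ORFs was −0.002. In E4, array 1 was above array 2 for 40 of 55 members, by a median of 0.08, with a median signed gap over all ORFs of 0.0085. In E4 array 1 gave the higher value for DIP2, TIF6, NOG2 and CIC1 and also for DRS1, SSF1 and SPB1, which were further below 0 on array 2, and in E3 it gave the lower value for NSR1, UTP15, RRB1 and HAS1. Without regard to sign, the median gap between the arrays over the members was 0.0998 in E4 and 0.1874 in E3. Spots of the same gene within an array were closer, with a median gap of 0.0764 over 205 pairs of spots.

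The study's methods kept a gene whose arrays averaged 1.5-fold or more and neither fell short of 1.4-fold. By this rule, turned round for lower genes, 16 members were lower in E3 and 0 were higher. These were NSR1, UTP15, RRB1, HAS1, NOP56, BRX1, NOG1, CIC1, NOP58, NOP1, NOG2, GAR1, UTP18, MAK16, IMP3 and NOC4. With normexp and loess on both arrays, 5.35% of all ORFs passed the rule in E3 as lower and 7.01% as higher. For other settings the shares over all ORFs are not given here. Counts of members under those settings are therefore not set against a background. The count was 9 without E3 array 1, 27 without E3 array 2, and 42 with plain subtraction of the local background. In E4, 0 members passed in either direction, against 4.64% of all ORFs as higher and 1.93% as lower, and 2 passed as higher (DIP2 and TIF6) without E4 array 2.

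**Figure D4:**
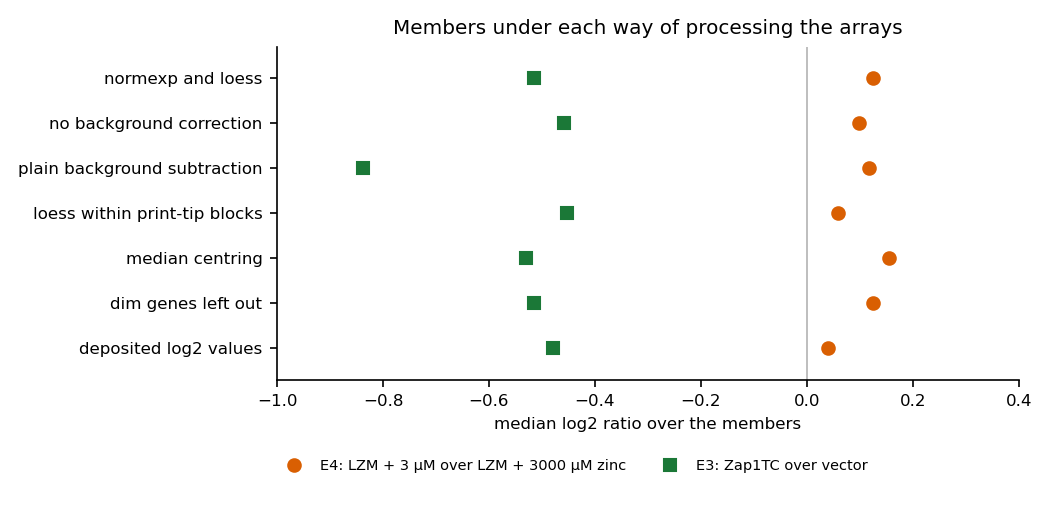
Median log2 ratio over the ribosome biogenesis genes (horizontal axis) under each way of processing the arrays (rows), with circles for E4 (3 μM over 3000 μM zinc) and squares for E3 (Zap1TC over vector). The E3 medians stay left of −0.45 under all 7 settings and reach −0.84 with plain background subtraction, while the E4 medians lie between 0.04 and 0.16.

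Among other genes of the pathway that are not among the 59, more were lower than higher in E3. The shares over all ORFs were 25.9% higher and 25.0% lower in E4, and 29.4% each way in E3. Of other 40S assembly factors, 7 of 44 were higher and 14 lower in E4, and 3 of 46 were higher and 28 lower in E3, with medians of −0.0011 in E4 and −0.23 in E3. Of other 60S assembly factors, 16 of 46 were higher and 11 lower in E4, and 1 of 45 was higher and 29 lower in E3, with medians of 0.02 in E4 and −0.24 in E3. The members thus had a lower E3 median than either list, but the difference between lists was not tested. RCL1, needed for cleavage of the 40S precursor, had −1.21 and −0.86 in E3. RRP7, also a 40S factor, was lower in E4 (−0.26 and −0.20) and higher in E3 (0.45 and 0.36). REA1, the large ATPase that strips factors off pre-60S particles, had 0.94 and 0.77 in E4 and 0.12 and 0.07 in E3. SDO1, which helps release Tif6 from the 60S subunit, had −0.16 and −0.23 in E4 and −0.94 and −0.84 in E3.

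Subunits of RNA polymerase I and its factors gave 3 higher and 3 lower of 14 in E4 and 0 higher and 10 lower of 14 in E3, with a median of −0.07 in E4 and of −0.44 in E3. The E4 counts were near the shares over all ORFs (25.9% higher and 25.0% lower), which were 29.4% each way in E3. RPA135, the second-largest subunit, was higher in E4 (0.59 and 0.43) and lower in E3 (−0.84 and −0.53), as many of the assembly factors were. RPA190, the largest subunit, was higher in E4 (0.38 and 0.38) and was not called in E3 (−0.02 and 0.03). RPA12 was lower in both experiments, with −0.36 and −0.41 in E4 and −1.19 and −1.12 in E3, and so was the initiation factor RRN7, with −0.32 and −0.27 in E4 and −1.46 and −1.01 in E3.

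Ribosomal protein genes had lower medians than the 59 factors in both experiments, a difference that was not tested. Of the large-subunit proteins, 15 of 76 were higher and 27 lower in E4, and 2 of 74 were higher and 66 lower in E3, with medians of −0.09 in E4 and −0.78 in E3. Of the small-subunit proteins, 4 of 54 were higher and 16 lower in E4, and 0 of 53 were higher and 50 lower in E3, with medians of −0.10 in E4 and −0.76 in E3. Over all ORFs 25.9% were higher and 25.0% lower in E4, and 29.4% were called each way in E3. Many ribosomal protein genes have near-identical copies whose signal the spots may share.

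**Figure D5:**
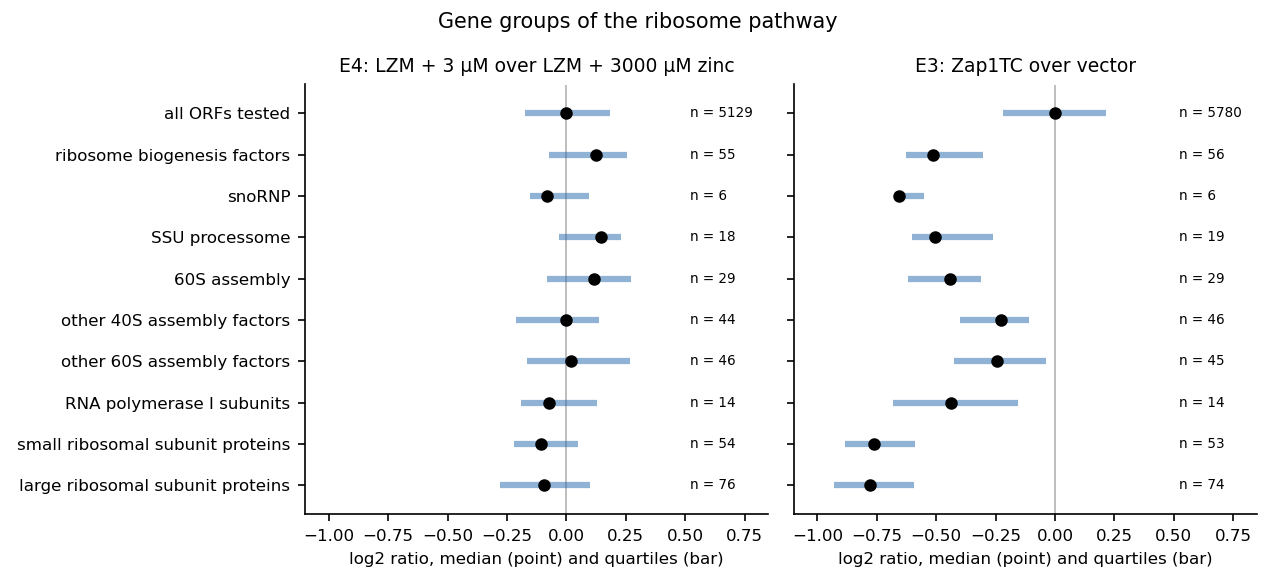
Median (point) and quartiles (bar) of the log2 ratio (horizontal axis) for all ORFs tested, the ribosome biogenesis factors, their classes with more than 2 genes, and 5 other gene groups of the pathway, without the regulators (rows), for E4 (3 μM over 3000 μM zinc, left panel) and E3 (Zap1TC over vector, right panel), with the number of genes tested beside each row. In E3 the medians of the pathway groups plotted lie left of 0, from −0.23 for other 40S assembly factors to −0.78 for large-subunit ribosomal proteins, while in E4 they lie between −0.10 and 0.15.

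Of 8 regulators of these genes tested in each experiment, 1 was higher and 0 lower in E4 (median 0.06), and 3 were higher and 1 lower in E3 (median 0.09). Over all ORFs 25.9% were higher and 25.0% lower in E4, and 29.4% were called each way in E3. With 8 genes these counts are not read as a result for the list. DOT6, a repressor of ribosome biogenesis genes, was higher in both experiments, with log2 ratios of 0.53 and 0.57 in E4 (adjusted p = 5e-05) and of 1.19 and 1.14 in E3 (adjusted p = 1.31e-07). STB3, also a repressor, was not called in E4 (−0.13 and −0.05) and was higher in E3 (0.70 and 0.37, adjusted p = 2.1e-04), and the kinase gene SCH9 was not called in E4 (0.14 and 0.15) and was higher in E3 (0.43 and 0.38). IFH1, a coactivator of ribosomal protein genes, was not called in E4 (−0.15 and 0.04) and was lower in E3 (−0.61 and −0.46). The contrast of E4 minus E3 was −0.62 for DOT6, −0.62 for STB3, −0.26 for SCH9 and 0.48 for IFH1, all called by limma. SFP1, FHL1, RAP1 and CRF1 were not called in either experiment, and TOD6 was read on E4 array 2 only. Among the regulators tested only DOT6 was called in E4, and the part of the regulators in the members' values was not tested.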

How the data were processed

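cDNA from 1.2 μg of mRNA of each culture was hybridized to 4 spotted arrays. The deposited scanner intensities are mean spot and local background intensities of each channel, neither subtracted nor scaled by the authors, for spots with a flag of 0. The log2 ratios deposited in the value table are of Cy5 over Cy3 and were normalized by the authors with LOWESS within each slide. They correlated with the values used here at r = 0.983 to 0.990, with column medians of −0.0201, −0.0182, −0.0211 and −0.0208 (E4 arrays, then E3 arrays). Whether a background was subtracted is not given in the sources used here. A scaled Cy3 column and its ratios in the scanner tables were not used.

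Intensities were corrected by normexp with an offset of 50 and normalized by loess (span 0.3) with limma 3.58.1 in R 4.3.3, and the spots of an ORF were averaged on the log2 scale. Spots more than 2.6 SD of the local backgrounds above background counted as well above it. All 4 arrays entered a single limma fit, with a coefficient for each experiment and a shared estimate of the spread, two-sided, with Benjamini-Hochberg adjustment over all ORFs at 0.05. The p-values rest on this spread, pooled over both experiments and moderated by limma across all ORFs. They do not rest on the SD of the 2 arrays of an experiment alone, and they cover no variation beyond these culture pairs. The fit was tested on simulated data. All 59 members matched a reference symbol, as did 5538 ORFs on the arrays, and 525 did not. Promoter and protein sequences were not used here.

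The members, their roles and the other gene lists were chosen with earlier results of these data known. Values on each array were planned for the 6 highest and 6 lowest members of each experiment and for the 6 largest differences. The highest and lowest member of each role were also planned. Further members, such as UTP13 and UTP18, have their values given too. Genes outside the members come from the lists (the 2 highest or 2 lowest, and all regulators), plus ZAP1. Alternatives were no background correction, plain subtraction, print-tip loess, median centring, dim genes left out, the deposited log2 values, each array left out, each experiment fitted alone, the replicate number as a block, and an intensity trend with a robust prior.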

Additional observations from a re-analysis of the deposited data

Results flagged for a closer look

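For 45 of the 55 members read on all 4 arrays, the responses in E4 (3 μM over 3000 μM zinc) and in E3 (Zap1TC over vector) differed by limma's contrast of E4 minus E3 (adjusted p under 0.05 over 4992 ORFs). In the same contrast 26.5% of all ORFs were higher and 21.6% lower. All 45 differences were positive on the log2 scale, between 0.31 and 1.73. The snoRNP proteins had differences of 1.07 for NOP56, 0.65 for NHP2, 0.64 for NOP58, 0.54 for NOP1, 0.43 for GAR1 and 0.36 for CBF5. The early pre-rRNA factors had differences of 1.73 for NSR1 and 0.43 for RRP5. In the SSU processome the differences were 1.19 for UTP15, 0.93 for DIP2, 0.84 for UTP4, 0.82 for UTP18, 0.82 for UTP21, 0.63 for UTP8, 0.61 for UTP9, 0.60 for UTP23, 0.59 for UTP5, 0.52 for MPP10, 0.50 for NOC4, 0.50 for UTP13, 0.45 for UTP10 and 0.45 for IMP3. Among the 60S assembly factors they were 1.06 for NOG1, 1.06 for NOG2, 1.05 for CIC1, 0.89 for SQT1, 0.81 for ERB1, 0.80 for RRB1, 0.75 for DBP3, 0.74 for HAS1, 0.68 for RLP24, 0.68 for NOP7, 0.66 for BRX1, 0.65 for YTM1, 0.59 for NOC2, 0.58 for NUG1, 0.57 for RLP7, 0.48 for MAK16, 0.47 for NIP7, 0.47 for NOC3, 0.43 for RPF2, 0.42 for TIF6, 0.41 for MAK21, 0.34 for NOP4 and 0.31 for RPF1. The contrast also sets LZM against SD galactose medium, and the part of the medium was not tested.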

How the results depend on the processing

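The lower ratios in E3 and the positive differences between the experiments kept their direction under the alternatives run, and the E4 counts were less stable. With 20 higher and 4 lower in E4, plain background subtraction gave 8 and 1 and the deposited log2 values 13 and 11, while leaving out an E4 array gave 8 to 19 higher and 2 to 3 lower. The E4 median of 0.12 became 0.10 with no background correction, 0.0598 with print-tip loess, 0.16 with median centring and 0.0407 with the deposited values, and was 0.0923 to 0.12 without an E4 array. In E3, 42 to 51 members were lower, and 0 higher except without E3 array 1, where PWP2 turned to 0.23 (−0.39 without E3 array 2) and made the count 1, so leaving out an E3 array gave 0 to 1. The E3 median of −0.51 became −0.84 with plain subtraction and was −0.58 to −0.42 without an E3 array. For E4 minus E3, 41 to 48 members were higher and 0 lower in every setting, and the median of 0.57 became 0.87 with plain subtraction and was 0.47 to 0.64 without an array. By the fold rule, 16 lower in E3 became 42 with plain subtraction and 9 to 27 without an E3 array, and 0 higher in E4 became 0 to 2 without an E4 array. Plain subtraction leaves out the offset of 50, and for the other settings the cause was not tested. Shares over all ORFs are given only for normexp and loess with all arrays, so counts under other settings have no background beside them.

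Same-numbered arrays did not deviate together (correlation −0.074 over all ORFs), so the numbers were not taken as pairs. With the replicate block 48 members were lower in E3, 20 were higher and 4 lower in E4, and 47 were higher in E4 minus E3. A count of promoter motifs was not run, because no promoter sequences were used here. Dim spots limit the E3 values.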
